A study of Mus musculus with 6 samples.

Results

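The AhR, PXR and CAR genes, their partners and the drug efflux pumps make up 9 of the 55450 genes in the count table, chosen by symbol: Ahr, Ahrr, Arnt, Tiparp, Nr1i2, Nr1i3, Abcb1a, Abcb1b and Abcg2. Each symbol matched a single Ensembl identifier, and 8 of the 9 passed the filter on low counts. The data are polyA RNA-seq counts from small intestinal epithelium of mice, with 1 library per mouse and 3 mice per genotype. The knockout mice (423, 476 and 477) carried the Vil1-Cre-ERT2 transgene, a tamoxifen-dependent Cre recombinase driven by the villin promoter in the intestinal epithelium, and were floxed on both alleles of Ncor1 and of another corepressor gene. The control mice (482, 483 and 486) carried the same floxed alleles without the transgene. Per the labels' protocols tamoxifen was injected at 8 to 9 weeks of age, at 15 mg per 100 g body weight for 5 days, and the protocols do not limit it to 1 genotype. Metabolic cage housing began at day 21, and the sex of the mice is not stated in the labels. The promoter confines Cre to epithelium, whereas the scraped material can hold other cells. Only the knockouts carry Cre, so the deletion and the transgene itself cannot be told apart. The protocols name duodenum, jejunum and ileum but not which of these each library holds. In such bulk samples fewer cells of a type and less RNA per cell cannot be told apart either.

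Xenobiotic-sensing receptors couple foreign chemicals and dietary or microbial metabolites to detoxification genes. AhR, encoded by Ahr, waits in the cytoplasm with HSP90 chaperones, binds ligands such as indoles, pairs with ARNT in the nucleus and switches on genes that include Cyp1a1 and its own brakes, the AhR repressor (Ahrr) and the ADP-ribosyltransferase TIPARP (Tiparp). PXR (Nr1i2) and CAR (Nr1i3) are nuclear receptors that pair with RXR and switch on oxidising and conjugating enzymes and drug exporters. P-glycoprotein, encoded in mice by the neighbouring genes Abcb1a and Abcb1b, and BCRP (Abcg2) are ATP-driven pumps of the apical enterocyte membrane that return drugs and toxins to the gut lumen.

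Promoter sequence of 3 AhR target genes is shown because the AhR-ARNT dimer binds DNA through the core GCGTG. Each is the 250 bases upstream of the gene start in RefSeq (GRCm38.p6, written 5′ to 3′ along the gene), with matches to GCGTG on either strand in capitals. The Ahrr window is chr13:74292332-74292581 on the minus strand, the Tiparp window chr3:65528197-65528446 on the plus strand and the Cyp1a1 window chr9:57697363-57697612 on the plus strand.
Ahrr: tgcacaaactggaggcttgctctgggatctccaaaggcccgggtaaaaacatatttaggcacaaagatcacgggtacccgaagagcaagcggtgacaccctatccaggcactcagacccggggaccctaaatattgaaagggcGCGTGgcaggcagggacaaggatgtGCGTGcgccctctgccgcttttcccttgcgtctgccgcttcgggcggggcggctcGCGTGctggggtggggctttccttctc
Tiparp: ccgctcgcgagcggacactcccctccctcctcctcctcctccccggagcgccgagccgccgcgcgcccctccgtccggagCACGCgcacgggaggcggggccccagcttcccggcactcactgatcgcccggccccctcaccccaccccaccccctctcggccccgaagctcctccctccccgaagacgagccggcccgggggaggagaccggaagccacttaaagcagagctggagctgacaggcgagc
Cyp1a1: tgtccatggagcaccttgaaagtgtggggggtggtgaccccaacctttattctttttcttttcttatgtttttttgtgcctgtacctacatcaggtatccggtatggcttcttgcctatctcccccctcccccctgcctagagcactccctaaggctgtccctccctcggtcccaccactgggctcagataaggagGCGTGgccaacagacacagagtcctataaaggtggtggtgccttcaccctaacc
The Ahrr window held 3 matches, starting 107, 82 and 27 bases upstream, and the Tiparp and Cyp1a1 windows 1 each, 170 and 54 bases upstream. At least 1 match stood in 28.2% and at least 3 in 2.77% of the 32851 windows of that length. The Arnt window also held 1, and those of Nr1i2, Nr1i3, Abcb1a and Abcb1b and the 3 windows of Abcg2 held none. For Abcb1a the RefSeq window (chr5:8566841-8567090) lies well upstream of the GENCODE gene start (8660077), so it does not adjoin the gene as counted here. A match describes these letters only and is not a binding site.

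Total counts ran from 23476031 to 46835165 per library. Ncor1 stood at 30.1 ± 7.02 CPM in knockouts and 126 ± 22.9 CPM in controls (SD, n = 3 each; called lower), where CPM are counts scaled to library size with factors from the trimmed mean of M-values (TMM). Of 15028 genes tested, 17.3% were called higher and 18.3% lower in knockouts (edgeR quasi-likelihood test, Benjamini-Hochberg adjusted p under 0.05). Knockout libraries stood wholly above control libraries in 23.9% of the genes and wholly below them in 26.4%, or 50.3% in either direction. Epithelial markers were abundant in both genotypes, at a summed 7599 to 12200 CPM in knockouts and 11600 to 12330 CPM in controls; 1 of the 8, Vil1, was called lower. Of 3 proximal and 3 distal markers 1 each (Lct and Osr2) was called lower.

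Of the 8 genes tested, 1 was called lower in knockouts, none higher and 7 did not pass the test, against 35.6% called in either direction among all genes. The gene called was Ahr. By edgeR, 2 of the 8 had an unadjusted p under 0.05, Ahr and Nr1i2, and the share of all genes at that threshold is not given here. DESeq2 also called 1 of the 8 lower and 0 higher, against 2956 lower and 3020 higher among the 15028 genes. The median log2 fold change of the 8 was -0.0013 (-0.06 over all genes tested). Every knockout library lay below every control library for Ahr and Arnt and above every control library for Nr1i2, 3 of the 8, against the 50.3% above; the others overlapped.

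**Figure D1:**
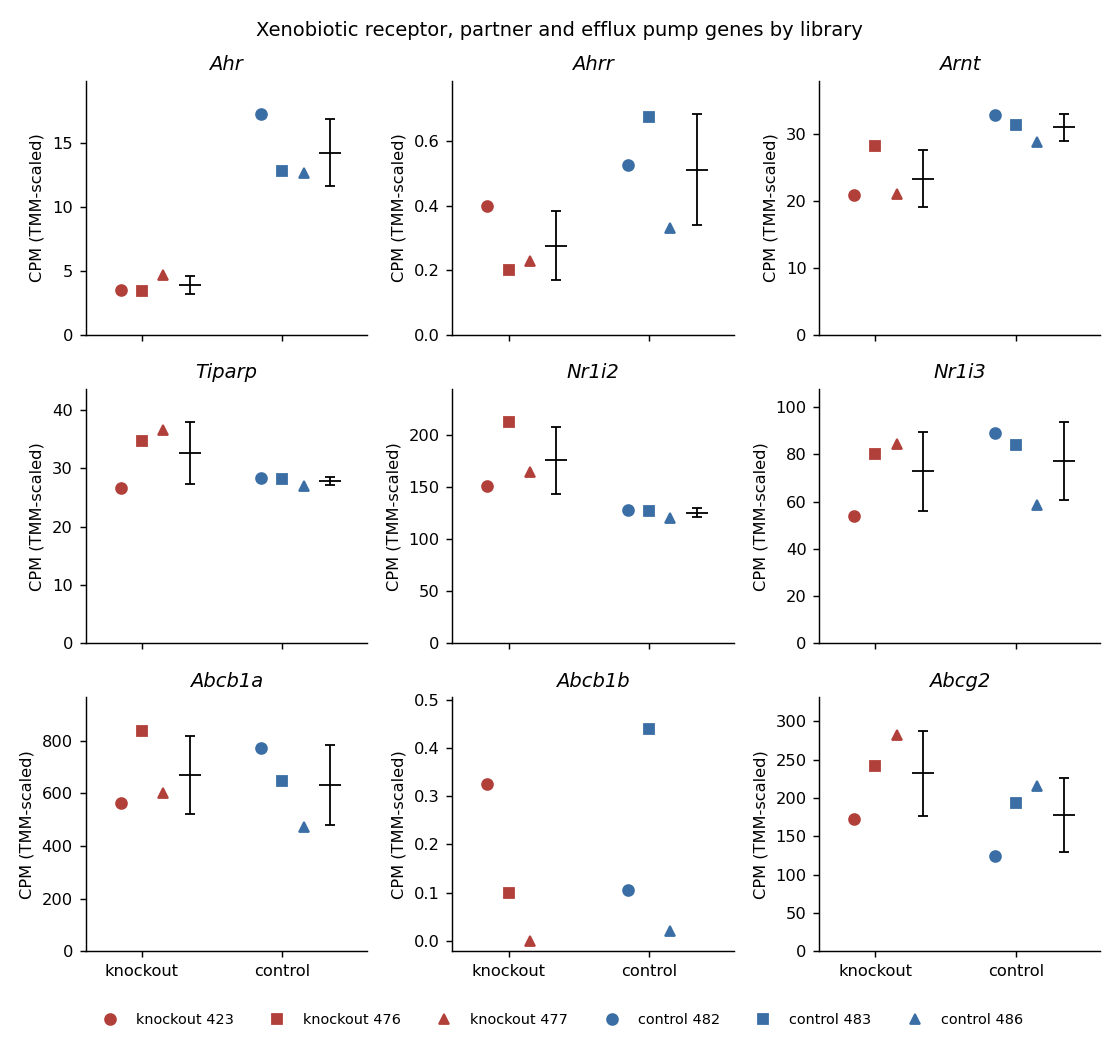
Expression of the 9 genes in each library, in TMM-scaled CPM on a linear axis. Points are libraries (knockouts left, controls right) and black marks are the mean ± SD of 3 libraries, left out for Abcb1b; Ahr lies at 3.46 to 4.72 CPM in knockouts and at 12.7 to 17.3 CPM in controls.

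Ahr (ENSMUSG00000019256, mm10 chromosome 12, 35497974 to 35535038, minus strand), the ligand-binding receptor itself, fell 3.68-fold. Ahr had 3.51, 3.46 and 4.72 CPM in knockouts 423, 476 and 477, against 17.3, 12.9 and 12.7 CPM in controls 482, 483 and 486. Every knockout library lay below the lowest control library. The log2 fold change was -1.88 (SE 0.25, 95% interval -2.45 to -1.31, edgeR adjusted p = 0.00084). These levels rested on 82 to 104 counts per knockout library and 381 to 820 per control library. With each library left out in turn the log2 fold change stayed between -2.02 and -1.72, and every such fit called the gene. In the other alternatives it ran from -2.35 with library size alone to -1.56 with each library's trend with exon length and GC content removed.

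Cells other than epithelium also express Ahr, so their markers stand beside this value. Over all genes tested 17.3% were called higher and 18.3% lower. Of 8 tested leukocyte markers 1 was called lower (Ptprc, the pan-leukocyte gene CD45) and none higher. The 10 listed sum to 571 to 603 CPM in knockouts and 164 to 782 CPM in controls. Gzma, at 421 ± 45.2 CPM in knockouts and 207.5 ± 164 CPM in controls, weighs heavily in that sum. So does Jchain, at 55.4 ± 47.7 CPM in knockouts and 170 ± 129 CPM in controls. Ptprc stood at 8.17 ± 1.39 CPM in knockouts and 28.2 ± 11.3 CPM in controls (SD, n = 3 each). Of genes that mark group 3 innate lymphoid and Th17 cells, the cytokine genes Il22 and Il17a and the receptor gene Il23r were at 0 in all knockout libraries and had at most 2 counts in a control library. Of 7 tested myeloid markers 1 was called higher (Csf1r) and 1 lower (Itgax), and the 9 listed sum to 20.3 to 26.2 CPM in knockouts and 17.9 to 55.1 CPM in controls. Of 8 mesenchyme markers none was called (6.08 to 47.1 CPM in knockouts, 8.81 to 35.7 CPM in controls), and of 3 tested endothelial markers 1 was lower (Lyve1), with the 7 listed at 1.21 to 5.39 CPM in knockouts and 3.82 to 6.21 CPM in controls. All 6 tuft cell markers, of a rare epithelial type, were called lower, at a summed 1.5 to 6.77 CPM in knockouts and 55.8 to 175 CPM in controls. Pou2f3 (1, 0 and 0 counts in knockouts 423, 476 and 477) and Il25 (0 in each) passed the filter through the control libraries alone. These genes could therefore not have been called higher. The part of all these cell types in the Ahr result was not tested.

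The dimer partner Arnt (ENSMUSG00000015522, chromosome 3, 95434388 to 95497240) had 20.8, 28.2 and 21.1 CPM in knockouts 423, 476 and 477, against 32.8, 31.4 and 28.9 CPM in controls 482, 483 and 486. The genotypes did not overlap, but knockout 476 lay just under the lowest control. Its log2 fold change was -0.41 (95% interval -0.85 to 0.04) and did not pass the test (adjusted p = 0.13). It depended on the scaling: with library size alone the gene was called lower (-0.85, adjusted p = 0.022), and with the length and GC trend removed the log2 fold change was 0.0035. Arnt has 8007 exon bases, and over all genes the log2 fold change was lower for genes with more exon bases (Spearman rho of -0.375 across genes, which are not independent).

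Tiparp and Ahrr, which AhR induces and which in turn restrain it, gave values that differ in depth. Tiparp (ENSMUSG00000034640, chromosome 3, 65528410 to 65555518) had 26.7, 34.8 and 36.5 CPM in knockouts 423, 476 and 477, against 28.3, 28.2 and 27.0 CPM in controls 482, 483 and 486. Knockout 423 lay below all controls and the other knockouts above them. With a log2 fold change of 0.23 (95% interval -0.20 to 0.66, adjusted p = 0.37) Tiparp did not pass the test, and with library size alone the value was -0.23. Ahrr (ENSMUSG00000021575, chromosome 13, 74211118 to 74292331) had 11, 6 and 4 counts in knockouts 423, 476 and 477 and 25, 20 and 17 counts in controls 482, 483 and 486, or 0.276 ± 0.107 CPM in knockouts and 0.511 ± 0.172 CPM in controls (SD, n = 3 each). In CPM the libraries overlapped, since knockout 423 lay above control 486. Ahrr passed the filter through the control libraries, as 1 knockout library and all 3 control libraries reached the cutoff of 0.318 CPM (unscaled). Its log2 fold change of -0.85 had a wide interval (-2.03 to 0.32, adjusted p = 0.23), and so few counts do not resolve a change of that size. The Ahrr value also depended on the setting, at -0.39 with the length and GC trend removed and -1.27 with library size alone.

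Count ratios within a library do not depend on how libraries are scaled; these pairs were chosen after the values were seen and carry no test. The ratio of Ahr to Arnt was 0.168, 0.122 and 0.224 in knockouts 423, 476 and 477 and 0.527, 0.410 and 0.438 in controls 482, 483 and 486. Tiparp counts were 7.60, 10.1 and 7.74 times those of Ahr in these knockouts and 1.64, 2.19 and 2.13 times in these controls. In both pairs the genotypes did not overlap. Ahrr over Ahr was 0.113, 0.0577 and 0.0488 in the knockouts and 0.0305, 0.0525 and 0.0262 in the controls, where knockout 477 and control 483 overlapped. Relative to Arnt and to Tiparp, Ahr was lower in each knockout library than in any control library.

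**Figure D2:**
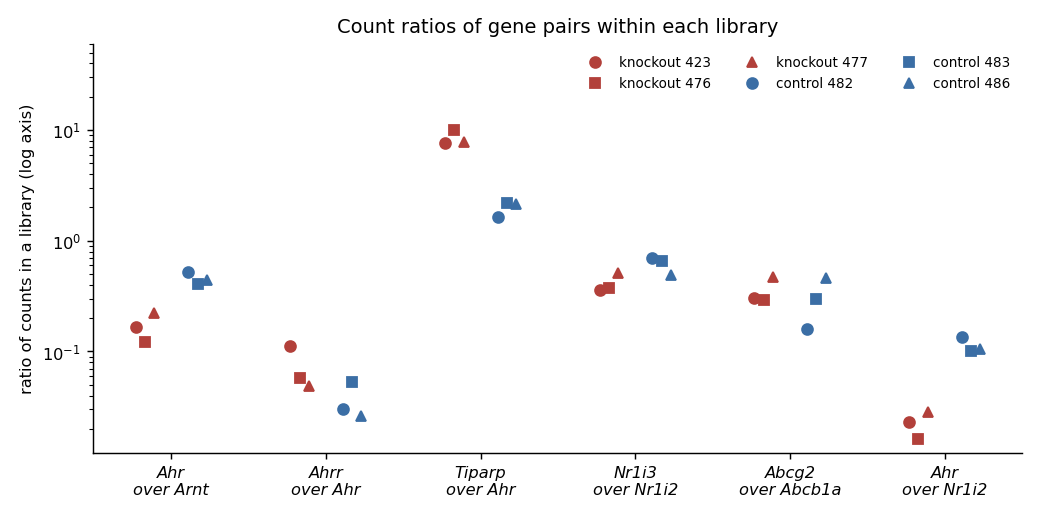
Ratios of counts of gene pairs within each library, on a log axis, with knockouts left of controls in each pair. The Ahr to Arnt ratio is 0.122 to 0.224 in knockouts and 0.410 to 0.527 in controls, whereas Abcg2 over Abcb1a overlaps between genotypes.

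The PXR gene Nr1i2 (ENSMUSG00000022809, chromosome 16, 38248323 to 38294824) had 151, 212 and 165 CPM in knockouts 423, 476 and 477, against 128, 128 and 120 CPM in controls 482, 483 and 486. All knockouts lay above all controls, and the controls were close to each other (coefficient of variation 3.47%, against 18.4% in knockouts). The log2 fold change of 0.49 (SE 0.21, 95% interval 0.03 to 0.95) had an unadjusted p of 0.040 and did not pass the adjusted test by edgeR (adjusted p = 0.091; range over the alternatives 0.053 to 0.88). Scaling by library size alone gave 0.04 for Nr1i2, but there the median over all genes also shifted by -0.438.

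The CAR gene Nr1i3 (ENSMUSG00000005677, chromosome 1, 171213970 to 171220701, plus strand) had 53.7, 80.1 and 84.4 CPM in knockouts 423, 476 and 477, against 88.9, 84.2 and 58.5 CPM in controls 482, 483 and 486. The genotypes overlapped, with knockout 423 and control 486 as the low libraries. Nr1i3 had a log2 fold change of -0.09 (95% interval -0.64 to 0.46, adjusted p = 0.81), which changed sign without control 482 (0.02), without knockout 423 (0.12) and with the length and GC trend removed (0.23). The Nr1i3 exons share 3304 bases (74.9%) with exons of Tomm40l, a mitochondrial outer membrane gene on the opposite strand. Whether the counting used strand is not stated in the labels, and without strand the reads of Nr1i3 and Tomm40l over these bases cannot be told apart. Tomm40l stood at 21.6 ± 3.16 CPM in knockouts and 20.8 ± 5.17 CPM in controls (SD, n = 3 each; adjusted p = 0.87 by edgeR). The ratio of Nr1i3 to Nr1i2 counts was 0.357, 0.377 and 0.512 in knockouts 423, 476 and 477 and 0.694, 0.660 and 0.486 in controls 482, 483 and 486, with control 486 just under knockout 477.

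Abcb1a (ENSMUSG00000040584, chromosome 5, 8660077 to 8748575) carried nearly all P-glycoprotein counts. It measured 564, 838 and 602 CPM in knockouts 423, 476 and 477, against 772, 648 and 472 CPM in controls 482, 483 and 486. Knockout 476 was the highest library and control 486 the lowest, and the genotypes overlapped. The log2 fold change was 0.08 (SE 0.27, 95% interval -0.52 to 0.69, or 0.697-fold to 1.61-fold; adjusted p = 0.83). It changed sign without control 486 (-0.09), without knockout 476 (-0.10) and with library size alone (-0.38).

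Abcb1b (ENSMUSG00000028970, chromosome 5, 8798147 to 8866315) had 9, 3 and 0 counts in knockouts 423, 476 and 477 and 5, 13 and 1 counts in controls 482, 483 and 486, and was not tested. The 0 counts in knockout 477 allow up to 0.173 CPM (3 counts, counting error only). Abcb1a made up 99.942%, 99.988% and 100.00% of the counts of the pair in those knockouts and 99.986%, 99.932% and 99.996% in those controls. The difference in mean share, 0.0053 percentage points, was not larger than the spread (exact permutation test, two-sided, p = 0.6). With 3 against 3 libraries this test cannot give less than 0.1. The 0 to 13 Abcb1b counts per library also do not resolve a change within so small a share. The longest GENCODE transcripts of the pair share 523 of the 4232 windows of 75 bases in Abcb1b (12.4%), and the other windows of Abcb1b had no exact match in Abcb1a.

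Abcg2 (ENSMUSG00000029802, chromosome 6, 58584523 to 58695676) had 173, 242 and 283 CPM in knockouts 423, 476 and 477, against 124, 194 and 216 CPM in controls 482, 483 and 486. The genotypes overlapped in knockout 423 and controls 483 and 486. For Abcg2 the log2 fold change was 0.38 (95% interval -0.24 to 1.00, adjusted p = 0.30). Over the alternatives the Abcg2 value ran from -0.07 with library size alone to 0.67 with the length and GC trend removed, and none called the gene. Red blood cell precursors also express ABCG2. All 5 erythrocyte genes were called higher here, against 17.3% of all genes. They sum to 35.5 to 543 CPM in knockouts and 7.95 to 22.2 CPM in controls. The part of these cells in the Abcg2 values was not tested. Abcg2 over Abcb1a was 0.306, 0.289 and 0.470 in knockouts 423, 476 and 477 and 0.161, 0.300 and 0.459 in controls 482, 483 and 486. This ratio overlapped between genotypes and changed direction without control 482.

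**Figure D3:**
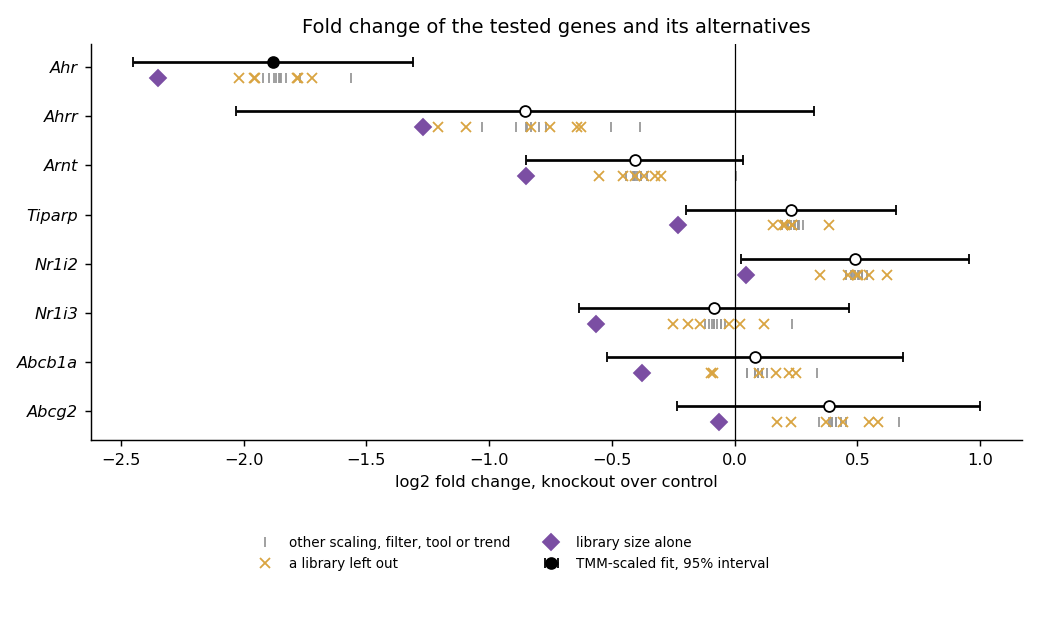
Log2 fold change (knockout over control) of the 8 tested genes. Circles with bars are the TMM-scaled edgeR fit with its 95% interval (filled where called), and the marks beneath are the alternatives; Ahr stays between -2.35 and -1.56 in all of them, and library size alone puts each gene at its lowest value.

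Per kilobase of exon, the pump and receptor genes differed widely in level. On this scale (CPM per exon kilobase, RPKM) Abcb1a led with 122 ± 27.1 in knockouts and 115 ± 27.6 in controls, followed by Nr1i2 with 69.0 ± 12.7 in knockouts and 49.1 ± 1.70 in controls (SD, n = 3 each). Abcg2 had 28.5 ± 6.84 RPKM in knockouts and 21.9 ± 5.90 RPKM in controls, and Nr1i3 had 16.5 ± 3.76 RPKM in knockouts and 17.5 ± 3.71 RPKM in controls. Tiparp (7.49 ± 1.21 RPKM in knockouts, 6.39 ± 0.173 RPKM in controls) and Arnt (2.92 ± 0.525 RPKM in knockouts, 3.87 ± 0.247 RPKM in controls) stood above Ahr (0.632 ± 0.116 RPKM in knockouts, 2.32 ± 0.424 RPKM in controls). The order was the same in both genotypes, with Ahrr and Abcb1b last at under 0.1 RPKM. Neighbours in this order overlapped in range for Ahrr and Abcb1b in both genotypes and for Abcg2 and Nr1i3 in controls, and no other neighbours did. Ahr was the least abundant of the 3 receptor genes in both genotypes.

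Among the 11 listed AhR target genes other than Ahrr and Tiparp, 7 were tested, of which 3 were called higher, none lower and 4 not called, against 17.3% higher and 18.3% lower among all genes; the median log2 fold change was 0.32. The 3 were Nqo1 (3.09, SE 0.33), a quinone reductase gene that NRF2 also induces, Ugt1a7c (1.25, SE 0.21), a glucuronosyltransferase gene that shares exons with its neighbours, and Slc7a5 (2.23, SE 0.39), which encodes a large neutral amino acid carrier. Nfe2l2, which encodes NRF2, had a log2 fold change of 0.32 (adjusted p = 0.25). Cyp1a1, the classic AhR-induced oxidase gene, had 40, 0 and 0 counts in knockouts 423, 476 and 477 and 55, 41 and 51 counts in controls 482, 483 and 486. Knockout 423 lay above the control libraries at 1.45 CPM, against 0.996 to 1.38 CPM in controls, and the zeros in knockouts 476 and 477 allow up to 0.0997 and 0.173 CPM. Over all 6 libraries Cyp1a1 was not called by edgeR (log2 fold change -1.22, SE 1.11, adjusted p = 0.41). It was called lower without knockout 423 (adjusted p = 0.0031), by voom (0.031) and by voom with sample weights (0.0078). Cyp1a2 had no count in any library.

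The 11 genes listed here as AhR partners were chaperone, bHLH-PAS family and ubiquitin ligase genes, and all were tested. Not all of them encode proteins that bind AhR itself, the hypoxia-inducible factor genes among them. Of these, 3 were called higher and none lower, against 17.3% higher and 18.3% lower among all genes. With library size alone 1 was higher. The median log2 fold change was 0.46. The 3 were Arntl (1.98, SE 0.22), which encodes the clock factor BMAL1, Ptges3 (1.03, SE 0.20), which encodes the HSP90 cochaperone p23, and Hif3a (2.53, SE 0.73), a hypoxia-inducible factor gene at 1.12 ± 0.938 CPM in knockouts and 0.194 ± 0.0915 CPM in controls. The Hif3a call (adjusted p = 0.025) was lost without control 483, control 486 or knockout 423 (adjusted p of 0.062, 0.066 and 0.10), and its log2 fold change without knockout 423 was 1.77. It was lost too with library size alone (adjusted p = 0.063), by voom (0.053), by voom with sample weights (log2 fold change 1.95, adjusted p = 0.067) and by limma-trend (1.31, adjusted p = 0.060). Ptges3 lost its call with library size alone (0.61, adjusted p = 0.059), and Epas1, which encodes HIF-2α, was called only with the length and GC trend removed (0.95, adjusted p = 0.015). Of 7 listed enzymes of tryptophan breakdown, a source of AhR ligands (here called ligand enzymes), 2 could be tested. Ido1, which opens the kynurenine pathway, fell, at 3.22, 3.59 and 1.61 CPM in knockouts 423, 476 and 477 and 12.7, 49.3 and 11.7 CPM in controls 482, 483 and 486 (log2 fold change -3.10, SE 0.58). Its control level rested in part on control 483, without which the log2 fold change was -2.11. Kmo had a log2 fold change of 0.65 (adjusted p = 0.14).

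Most listed target genes of PXR and CAR rose, whereas Nr1i2 and Nr1i3 did not pass the test. Of 26 listed 23 were tested, and 19 were called higher, 1 lower and 3 not called, against 17.3% higher among all genes. The median log2 fold change was 2.41. This list, like the others, was chosen with earlier results of these data known, so the share among all genes is not an independent comparison. The smallest adjusted p belonged to glutathione transferase genes: Gstm1 at 2446 ± 269 CPM in knockouts and 120 ± 5.41 CPM in controls, Gsta2 at 94.4 ± 25.3 CPM in knockouts and 2.12 ± 0.810 CPM in controls, Gstm3 (log2 fold change 3.44) and Gsta1 (3.72). These transferases have close paralogs, so the split of reads among them is uncertain; NRF2 is known to induce several of them as well. The 1 called lower was Cyp2c29, which fell by 1.42 on the log2 scale, to 45.9 ± 7.51 CPM in knockouts, against 123 ± 30.2 CPM in controls. The 3 not called by edgeR were Cyp2b10, Cyp3a44 (log2 fold change -0.31, adjusted p = 0.61) and Ugt1a1 (0.64, adjusted p = 0.053). Cyp2b10, the classic CAR target, had 280, 311 and 401 CPM in knockouts 423, 476 and 477, against 389, 546 and 389 CPM in controls 482, 483 and 486 (log2 fold change -0.42, adjusted p = 0.21), and was called lower with library size alone (-0.88, adjusted p = 0.0088). The classic PXR target Cyp3a11 had a log2 fold change of 3.20 (SE 0.40). The difference between Cyp3a11 and Cyp2b10 was not tested, and both were picked out after their values were seen.

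Genes that work with PXR and CAR mostly had negative log2 fold changes. Of 12 listed, 11 were tested, and 5 were called lower and none higher, against 18.3% lower among all genes; the median was -0.70. They were Rxra, which encodes the obligate dimer partner, at 62.5 ± 7.72 CPM in knockouts and 132 ± 15.7 CPM in controls (log2 fold change -1.08, SE 0.20), the coactivator genes Ncoa1 (-1.36), Ncoa3 (-0.95) and Ppargc1a (-1.65), and Dnajc7 (-0.70), which encodes a protein that holds CAR in the cytoplasm. With the length and GC trend removed 2 of the list were lower and 1 higher, and Rxra (-0.52) and Ncoa3 (-0.49) were no longer called (adjusted p of 0.052 and 0.059). Dnajc7 (adjusted p = 0.022) lost its call there too, and when control 482, control 483, knockout 423 or knockout 477 was left out (adjusted p of 0.062 to 0.11). Rxrg, another RXR gene, had no count in any library.

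**Figure D4:**
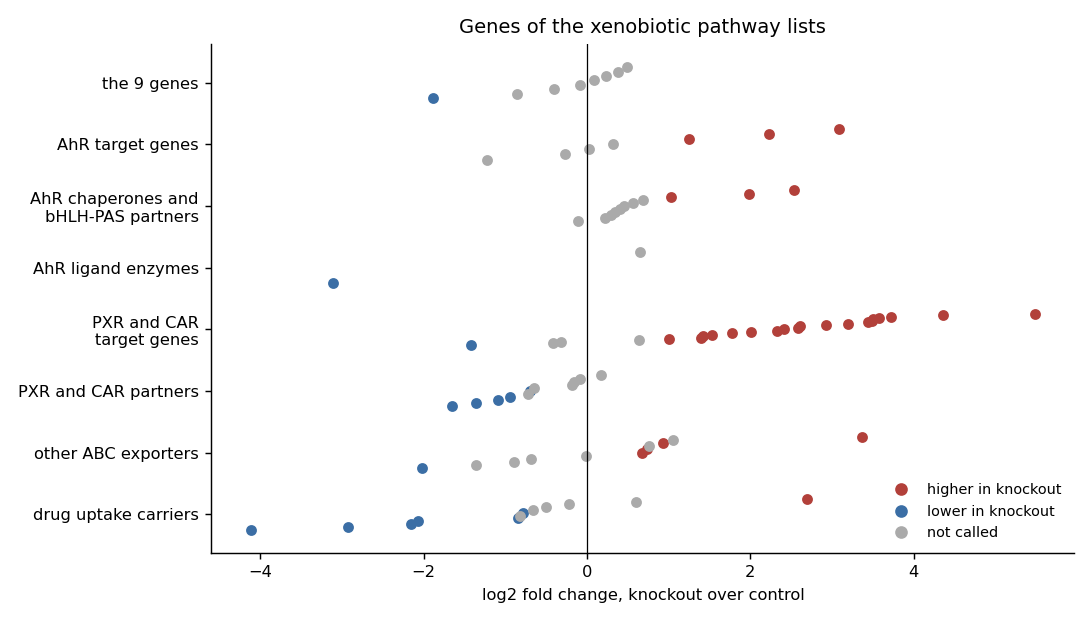
Log2 fold change (knockout over control) of every tested gene in each list, coloured by call. The PXR and CAR targets lie mostly to the right of 0 with 19 of 23 called higher, whereas 7 of the 8 tested receptor, partner and pump genes are not called. The lists were chosen with earlier results of these data known.

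Of 13 other ABC exporters 11 were tested, with 4 called higher, 1 lower and 6 not called, against 17.3% higher and 18.3% lower among all genes (median 0.67). Abcc4, a basolateral exporter of organic anions, stood at 4.71 ± 1.64 CPM in knockouts and 0.457 ± 0.121 CPM in controls (log2 fold change 3.37, SE 0.43). The sterol exporter gene Abcg8 (0.93), its partner Abcg5 (0.67) and the basolateral exporter gene Abcc3 (0.73) rose too, and Abcc6 fell by 2.02. Abcc4 was at 2.64 by limma-trend and Abcc6 at -1.40 with the length and GC trend removed, and both were still called. Between 1 and 3 exporters rose when a library was left out: Abcg5 lost its call whichever library was left out (adjusted p of 0.055 to 0.14), Abcg8 without knockout 476 (0.065), and Abcc3 without control 482, control 486 or any knockout library (adjusted p of 0.054 to 0.12). Abcg5 also lost its call without the filter (0.086) and with the length and GC trend removed (0.061). With library size alone 1 exporter rose and 3 fell. The apical exporter gene Abcc2, a PXR target, stood at 504 ± 153 CPM in knockouts and 508 ± 152 CPM in controls (log2 fold change -0.01, adjusted p = 0.98), and the sign of its fold change depended on the setting.

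Of 12 drug uptake carriers, all tested, 6 were called lower, 1 higher and 5 not called, against 18.3% lower and 17.3% higher among all genes (median -0.80). The nucleoside carrier gene Slc28a1 fell to 14.5 ± 0.800 CPM in knockouts, against 253 ± 22.7 CPM in controls (log2 fold change -4.12, SE 0.22). The peptide and beta-lactam carrier PEPT1 (Slc15a1, -2.16) and the organic anion carrier Slco2b1 (-2.92) fell too. Slco2b1 had 4.78, 1.43 and 0.92 CPM in knockouts 423, 476 and 477, against 21.9, 12.3 and 20.8 CPM in controls 482, 483 and 486, and its log2 fold change without knockout 423 was -3.90. The carnitine carrier gene Slc22a5 rose by 2.69 on the log2 scale (SE 0.30).

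The tested genes whose log2 CPM followed Ahr most closely over the 6 libraries were Acvr1 (Pearson r = 0.998) and Smad6 (r = 0.996). With 3 libraries per genotype these values reflect the difference between the genotypes as well as the spread within them, and they are given as a description.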

How the data were processed

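The libraries were 6 polyA RNA-seq libraries from scraped small intestinal epithelium, 3 per genotype, grouped by sample title. The deposited counts are whole numbers for each gene, without normalization; the submitters' processing notes name fastp 0.21.0, STAR 2.7.9a, featureCounts (Subread 1.6.2) and mm10. The deposited variance-stabilised values, on a log2 scale, served 1 alternative. Symbols matched 55104 of 55450 identifiers; exon lengths, GC content and positions are those of GENCODE M21 (mm10).

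Counts were fitted in R 4.3.3 with edgeR 4.0.16: filterByExpr (10 counts in a library of median size, in at least 3 libraries), TMM, robust quasi-likelihood test, Benjamini-Hochberg over 15028 genes, threshold 0.05. CPM use TMM-scaled library sizes, log2 CPM a prior count of 2, and an SE is the log2 fold change over the square root of F. RPKM divide CPM by exon kilobases. The test was checked on simulated counts. Libraries of a genotype differed by more than sampling noise (chi-square over its degrees of freedom at least 63.8). Labels do not say whether mice shared litters.

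Alternatives were 3 scalings, 2 filters, DESeq2 1.42.0, limma 3.58.1 (voom, voom with weights, trend), the 20 most abundant genes left out, removal of each library's smooth length and GC trend (mgcv 1.9.3), and each library left out. Promoters came from RefSeq (GRCm38.p6), with a window for 8 of the 9 genes. Members and lists were chosen with earlier results of these data known. Named were all members, up to 4 genes per list with the smallest adjusted p, and the 2 genes most correlated with a called member. Called markers, Gzma, Jchain, Cyp1a1, Cyp1a2, Cyp2b10, Cyp2c29, Cyp3a11, Cyp3a44, Ugt1a1, Abcc2, Abcg5, Dnajc7, Rxrg and Tomm40l were added after their values were seen. The other targeted gene is not reported here.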

Additional observations from a re-analysis of the deposited data

How the results depend on the processing

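The Ahr call held in all 17 alternatives, and no alternative called a member higher. With library size alone, which shifts the median of all genes by -0.438, 1133 genes were higher and 4554 lower, 2 members were lower (Arnt at -0.85 beside Ahr), Tiparp was at -0.23, Abcb1a at -0.38, Abcg2 at -0.065 and Nfe2l2 at -0.11. In that setting 1 AhR partner rose, 2 PXR and CAR targets fell, and 1 other exporter rose and 3 fell. With the length and GC trend removed, Arnt was at 0.0035 and Nr1i3 at 0.23, 6 AhR partners rose, and 1 PXR and CAR partner rose and 2 fell. Both voom fits called 1 AhR target lower, Cyp1a1. Abcc2, at -0.01, was at 0.014 with RLE scaling and by DESeq2, 0.036 with upper-quartile scaling, 0.0028 by limma-trend and 0.40 with the trend removed. Without the filter 2 ligand enzymes and 3 other exporters fell, and 2 other exporters fell by DESeq2 and by voom with sample weights. The cause of these changes was not tested.

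When libraries were left out in turn, 1510 to 2958 genes were higher and 1748 to 2982 lower. The lowest counts came without control 482 (1510 higher) and without knockout 477 (1748 lower). The AhR targets called lower numbered 0 to 1, ligand enzymes called lower 1 to 3 (3 without control 482), and other exporters 1 to 3 in either direction. Abcc2 ran from -0.27 to 0.15, Nr1i3 from -0.25 to 0.12, Abcb1a from -0.10 to 0.25 and the Abcb1a share difference from -0.0143 to 0.0225 percentage points. Abcg2 over Abcb1a ran from -0.0986 to 0.658 and Nr1i3 over Tomm40l from -0.545 to 0.0785 (log2 differences). No paired analysis was possible because the groups share no animal number. Depth limits Ahrr and Abcb1b.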
